A study of Mus musculus with 22 samples.

Results

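The glucocorticoid receptor and 9 of its target genes were followed through 22 RNA-seq libraries of mouse brain endothelial cells. The 10 genes were taken from the table of 37991 genes by symbol: Nr3c1 (the receptor), Fkbp5, Klf9, Klf15, Zbtb16, Hif3a, Ddit4, Tsc22d3, Sgk1 and Map3k6. Each symbol had a single entry in the table, and the rule sets no threshold on a measured value. After silencing of glutamatergic neurons 8 of the 9 targets had group means of 1.55 to 4.33 times those of their controls, while Sgk1 stood at 1.10 times and the receptor at 0.935 times. No target passed the main limma test across all genes with all 8 libraries of that experiment. With the replicate number as a block Klf15, Hif3a and Ddit4 rose, beside 0.607% of all genes. DESeq2 called Klf9, Hif3a, Ddit4 and Tsc22d3, beside 2.32% of all genes, and edgeR called no target, beside 0.154%. Control library 2 of the silencing experiment was the highest control for 8 targets. Without that library the same 8 passed the limma test, beside 4.11% of all genes that rose. Leaving out a control that is high in these genes favours such calls, and without any other single library none of them passed. After neuronal activation and after whisker exploration no target passed the limma test across all genes with all libraries. For whisker exploration Map3k6 rose with the block, beside 2.99% of all genes, and with DESeq2, beside 1.63%, but did not pass with edgeR.

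The receptor, encoded by Nr3c1, is a nuclear receptor that waits in the cytoplasm in a complex with heat shock proteins. It binds corticosterone in mice, enters the nucleus and binds DNA at paired copies of a short sequence that face each other. Brain endothelium meets the circulating hormone first, and glucocorticoids are known to tighten the blood-brain barrier. Among the targets, Fkbp5 is a co-chaperone that lowers the hormone affinity of the receptor and so closes a feedback loop. Klf9, Klf15 and Zbtb16 are zinc finger transcription factors, and Hif3a belongs to the hypoxia-inducible factors. Ddit4 holds back the growth kinase mTORC1. Tsc22d3, also called GILZ, is a leucine zipper protein known for anti-inflammatory actions. Sgk1 is a kinase of ion transport, and Map3k6 a kinase at the head of a MAP kinase cascade.

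Cells had been sorted for CD31, a surface protein of endothelium, and the libraries were sequenced as read pairs. In the activation experiment C57BL/6 CamKIIa-tTA; TRE-hM3Dq mice received CNO, the ligand of the designer receptor (DREADD) hM3Dq, which excites the cells that carry it. In the silencing experiment C57BL/6 CamKIIa-tTA; TRE-hM4Di mice received CNO, and hM4Di inhibits. Each of these groups had 4 libraries and a control group of 4, made from cortex and hippocampus 3 hours after the injection. The controls received CNO too: the series text calls them littermates without DREADD expression, although their genotype label equals that of the treated mice. The CamKIIa driver is active in glutamatergic neurons, so that the endothelial cells themselves are not its target. In the whisker experiment 3 libraries (whisker-plus) came from barrel cortices of C57BL/6 wild-type mice that explored an enriched environment in the dark, and 3 (whisker-minus) from mice without whiskers in an empty cage. For each such library 5 pairs of barrel cortices were pooled, and whiskers and cage differ together between the groups. Age and sex are not given in the labels.

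The libraries of the whisker experiment were the deepest (44187482 to 57673270 reads), followed by those for silencing (25897142 to 32957916) and for activation (18387666 to 25163689). The 7 endothelial markers summed to between 20850 and 26441 CPM, read counts scaled to the library total, over all libraries. The 7 neuronal markers summed to 6.07 to 56.6 CPM, and the 7 pericyte markers to 530 to 2576 CPM. In such bulk samples fewer cells of a type and less RNA per cell cannot be told apart. Silencing control 2 was the highest control of its group for 8 of the 9 targets and activation control 1 the lowest of its group for 6. Both are given singly below. Silencing control 2 held 26441 CPM of the endothelial markers, the highest sum of its group, of which Slc2a1, the glucose transporter gene, made up 11784 CPM (5437 to 5995 CPM in the other 3 controls). The other 6 endothelial markers summed to 14657 CPM in it, the lowest of its group (15976 to 19371 CPM in the other controls, 13701 to 15688 CPM after silencing). It also had the highest sums of its group for astrocyte (576 CPM, lowest of the group 317), smooth muscle (493 CPM, lowest 175), erythrocyte (718 CPM, lowest 342) and microglia and macrophage markers (38.7 CPM, lowest 12.1). For neuronal (17.0 CPM, highest of the group 36.1) and oligodendrocyte markers (29.4 CPM, highest 38.5) silencing control 2 had the lowest sums of its group. Activation control 1 had the highest sums of its group for pericyte (2113 CPM, lowest 746), smooth muscle (354 CPM, lowest 121), erythrocyte (1016 CPM, lowest 318) and microglia and macrophage markers (35.2 CPM, lowest 15.7). For neuronal (12.1 CPM, highest of the group 56.6) and astrocyte markers (209 CPM, highest 359) activation control 1 had the lowest sums of its group. The part of these cells in the results was not tested.

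Short promoter windows of the genes were searched for the receptor's DNA element, and sequence outside them was not searched. The windows run from 250 bases before the annotated transcript start to 50 bases after it, were taken from RefSeq (build GRCm38.p6, not the build of the expression files), and exist for 8 of the 10 genes, with 15 windows in all. Zbtb16 and Nr3c1 have no window here. Sgk1 has 6 windows and Tsc22d3 3, against 1 for each other gene with a window, so shares per window do not compare the genes evenly. Both strands were searched for 4 motifs: the full receptor element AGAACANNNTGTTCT, a looser form of it (GNACANNNTGTNC), the short site AGAACA that makes up each arm of the full element, and the E-box CACGTG, a site of basic helix-loop-helix factors. Sgk1 and Map3k6 are shown because their windows hold the full and the looser element, and Klf15 and Fkbp5 because these genes with high values after silencing hold E-boxes and neither element. Capitals mark the full element in Sgk1, the looser element in Map3k6 and the E-boxes in Klf15 and Fkbp5. The Sgk1 window is chr10:21993640-21993939 on the plus strand, that of Map3k6 chr4:133240568-133240867 plus, that of Klf15 chr6:90462326-90462625 plus and that of Fkbp5 chr17:28486100-28486399 minus.
Sgk1: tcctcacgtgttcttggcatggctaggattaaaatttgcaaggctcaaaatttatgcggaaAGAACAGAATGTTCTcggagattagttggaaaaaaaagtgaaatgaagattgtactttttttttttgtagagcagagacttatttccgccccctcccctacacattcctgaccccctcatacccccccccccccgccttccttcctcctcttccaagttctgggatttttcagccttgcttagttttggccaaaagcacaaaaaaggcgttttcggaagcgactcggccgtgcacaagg
Map3k6: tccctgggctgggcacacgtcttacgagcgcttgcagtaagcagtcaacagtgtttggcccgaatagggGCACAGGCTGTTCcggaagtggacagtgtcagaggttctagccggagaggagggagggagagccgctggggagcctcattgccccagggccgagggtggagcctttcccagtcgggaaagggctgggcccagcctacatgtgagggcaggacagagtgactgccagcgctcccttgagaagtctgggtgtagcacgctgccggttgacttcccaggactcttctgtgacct
Klf15: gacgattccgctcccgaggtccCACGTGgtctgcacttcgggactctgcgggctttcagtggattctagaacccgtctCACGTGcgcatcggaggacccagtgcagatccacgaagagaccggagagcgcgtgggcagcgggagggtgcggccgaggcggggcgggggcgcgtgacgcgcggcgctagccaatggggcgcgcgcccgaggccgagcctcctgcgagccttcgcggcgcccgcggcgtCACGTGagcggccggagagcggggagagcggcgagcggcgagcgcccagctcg
Fkbp5: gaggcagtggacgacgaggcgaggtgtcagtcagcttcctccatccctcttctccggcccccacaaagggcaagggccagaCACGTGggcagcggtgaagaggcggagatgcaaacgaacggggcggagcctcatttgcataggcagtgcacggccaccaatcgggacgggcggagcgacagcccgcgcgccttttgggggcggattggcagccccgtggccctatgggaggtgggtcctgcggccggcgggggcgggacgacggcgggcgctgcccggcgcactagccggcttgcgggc

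The full element was found in 3 of 32851 windows of the whole table (0.00913%), and 1 of the 6 windows of Sgk1 is among them. It holds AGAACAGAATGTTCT at positions -189 to -175, where 0 is the first transcribed base. The looser element was in 0.475% of all windows. Map3k6 holds it as GCACAGGCTGTTC at -181 to -169, and in Sgk1 it lies inside the full element. The short site, in 19% of all windows, was found in windows of Sgk1 and Tsc22d3. The E-box was in 7.15% of all windows. Klf15 has 3 of them, at -228 to -223, -172 to -167 and -3 to 2, and Fkbp5 has 1 at -169 to -164. In Sgk1 an E-box at -246 to -241 overlaps a short site at -242 to -237. The motif matches are a description of these windows, and no binding was measured.

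**Figure D1:**
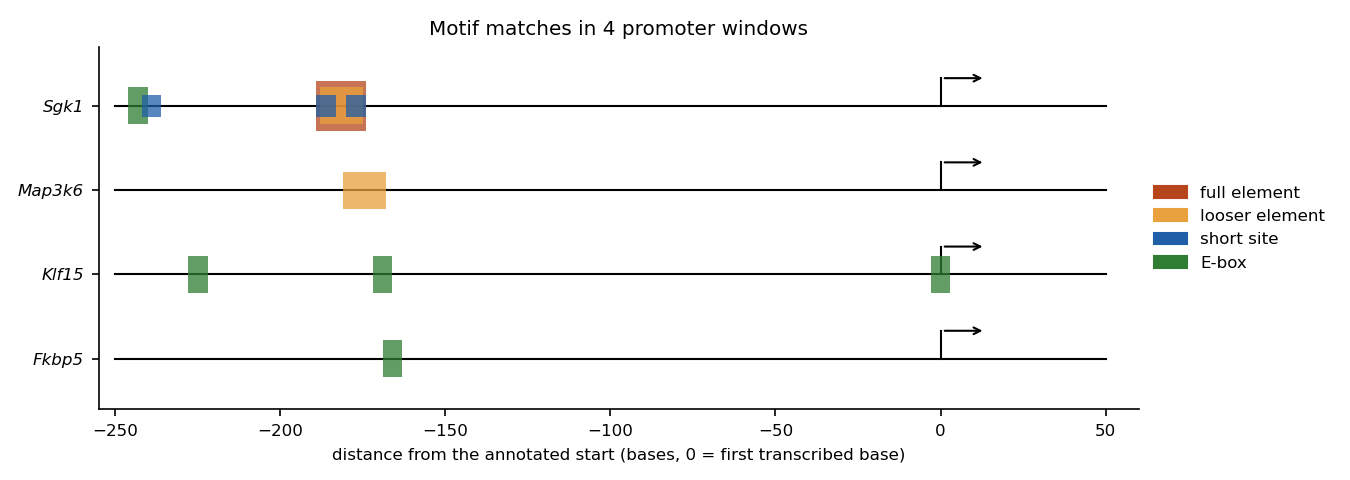
Motif matches in the promoter windows of Sgk1, Map3k6, Klf15 and Fkbp5, drawn to scale by distance in bases from the annotated start (arrow). The full element is seen in Sgk1 alone, at -189 to -175, the looser element in Sgk1 and Map3k6, and E-boxes in Klf15, Fkbp5 and Sgk1.

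The levels of the genes over the 6 groups fall into 3 patterns. The receptor varied least: Nr3c1 group means ran from 248 ± 13 CPM (SD, n = 4) in silencing to 339 ± 23.9 CPM (n = 3) in whisker-plus. In that order each group's range overlapped the range of the next, while whisker-minus exceeded activation control, and silencing control exceeded silencing, by more than the larger of their SDs. Sgk1 means ran from 835 ± 255 CPM in whisker-minus to 1180.4 ± 227 CPM in activation, and neighbours in that order overlapped and in no case differed by more than the larger of their SDs. For Fkbp5, Klf15, Hif3a, Ddit4, Zbtb16 and Map3k6 the lowest means were those of activation and its control, as the plot of CPM by library shows. For Klf9 and Tsc22d3 the silencing control and the activation control were lowest. Silencing held the highest mean for Fkbp5, Klf15, Klf9, Hif3a, Ddit4, Zbtb16 and Map3k6. Its range was clear of the next group for Klf15 (next whisker-minus), Klf9 and Zbtb16 (next whisker-plus in both). For Tsc22d3 the whisker groups were higher, at 1079 ± 89.8 CPM in whisker-plus and 977 ± 75.2 CPM in whisker-minus, followed by silencing at 877 ± 91.3 CPM. Tissue, mouse line, handling and depth differ between the experiments, so that these orders carry no test.

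**Figure D2:**
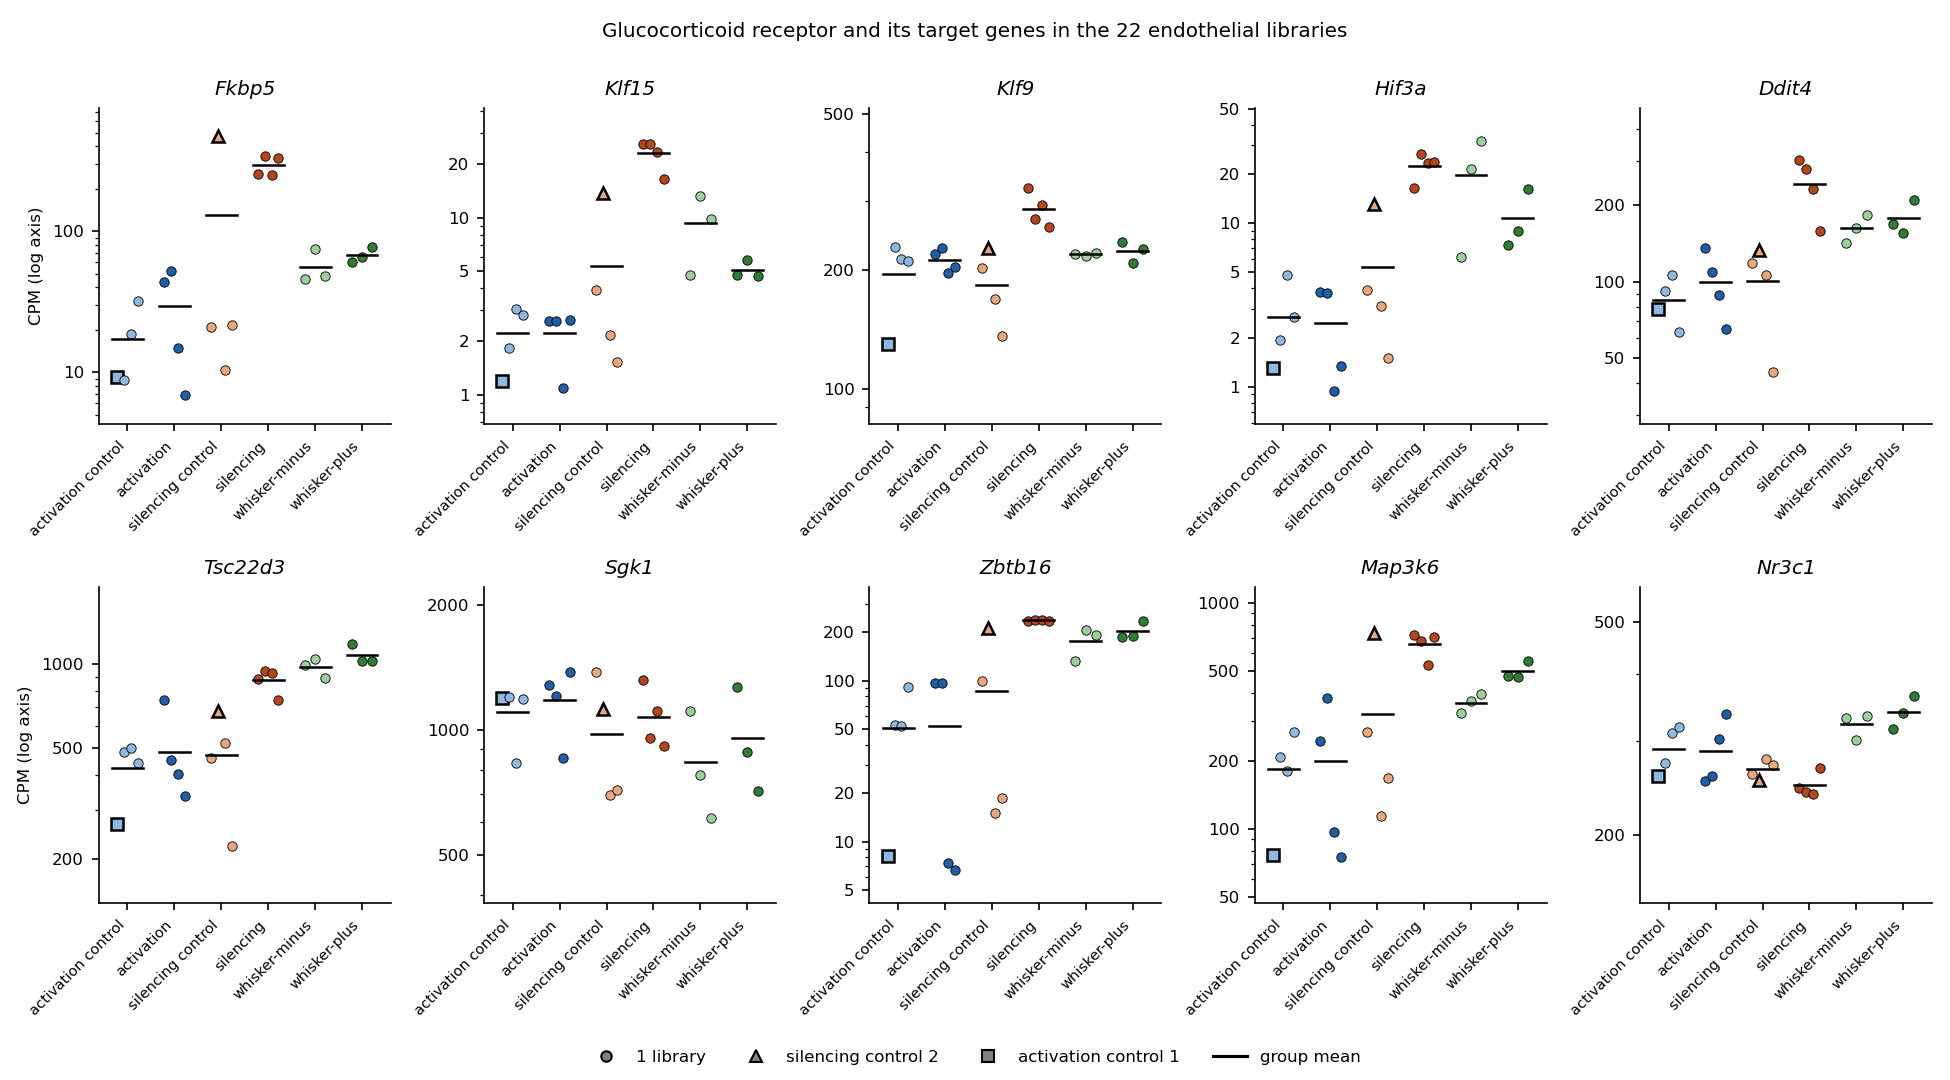
CPM (log axis) of the 10 genes in each of the 22 libraries, by group. Each point is 1 library and each bar a group mean, with silencing control 2 as a triangle and activation control 1 as a square. The triangle lies above the silencing libraries for Fkbp5 (469 CPM) and Map3k6 (739 CPM), and the square is the lowest activation control for 6 targets.

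The silencing experiment asks how the genes respond when glutamatergic neurons are inhibited. The receptor comes first. Nr3c1 stood at 259, 253, 277 and 270.5 CPM in control libraries 1 to 4 and at 245, 241, 238 and 267 CPM in silencing libraries 1 to 4. The groups overlap in part, and all 4 silencing libraries were within the narrow range of 238 to 267 CPM. This gave a log2 fold change of -0.10 ± 0.07 (SE; limma adjusted p = 0.542). Fold changes here and below are on the scale of log2(CPM + 1), which understates the change of low genes, and adjusted p-values run over all genes tested.

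Fkbp5, the feedback co-chaperone, had 20.9, 469, 10.3 and 21.6 CPM in the controls and 255, 342, 248 and 327 CPM after silencing. Control 2 was thus above every silencing library, while the other 3 controls were all far below them. With all libraries the log2 fold change was 2.85 ± 0.95 (limma adjusted p = 0.199), against 1.21 with edgeR and 1.22 with DESeq2 on the recovered reads. Without control 2 the other controls averaged 17.6 ± 6.31 CPM (n = 3) against 293 ± 48.2 CPM (n = 4), a log2 fold change of 4.03 ± 0.23 (adjusted p = 8.84e-05). Control 2 held 26.7 times the mean of the other 3 controls. Of the 9 targets this was the widest gap.

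Among the transcription factors, Klf15, known for its part in amino acid and glucose metabolism, had 3.88, 13.7, 2.17 and 1.53 CPM in the controls and 26.2, 25.9, 23.5 and 16.6 CPM after silencing. The groups did not overlap, and control 2 lay between the other controls and the silencing libraries. The log2 fold change was 2.27 ± 0.46 (limma adjusted p = 0.0865), and it was called with the replicate number as a block (adjusted p = 0.0290). Without control 2 Klf15 rose by 2.80 ± 0.23 (adjusted p = 0.000331).

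Klf9 had 203, 228, 169 and 137 CPM in the controls and 324, 269.6, 293 and 257 CPM after silencing. The groups were clear of each other, with control 2 again the highest control. Their log2 fold change was 0.65 ± 0.15 (limma adjusted p = 0.111), and without control 2 Klf9 rose by 0.76 ± 0.13 (adjusted p = 0.00814). It had the smallest change among the 8 targets that passed without control 2.

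Zbtb16, a transcriptional repressor, had 99.1, 214, 15.1 and 18.6 CPM in the controls and 236, 238, 239.8 and 236 CPM after silencing. The silencing libraries had an SD of 1.83 CPM, while the controls spread over a 14.2-fold range and lay below them all. Silencing against control gave a log2 fold change of 2.22 ± 0.72 (limma adjusted p = 0.189; 1.51 with edgeR and 1.52 with DESeq2), and 2.92 ± 0.52 without control 2, where the gene passed (adjusted p = 0.00861).

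Hif3a, a member of the hypoxia-inducible factors that can oppose the others, had 3.88, 13.1, 3.11 and 1.5 CPM in the controls and 16.3, 26.5, 23.3 and 23.7 CPM after silencing. The groups did not overlap, and control 2 lay nearest to the silencing libraries. The log2 fold change was 2.16 ± 0.44 (limma adjusted p = 0.0821), with a call under the block (adjusted p = 0.0370). Without control 2 Hif3a rose by 2.65 ± 0.24 (adjusted p = 0.000373).

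Of the growth and inflammation genes, Ddit4, the inhibitor of mTORC1, had 118, 134, 106 and 44.1 CPM in the controls and 303, 277, 231 and 159 CPM after silencing. Control 4 and silencing 4 were the lowest of their groups, and the groups did not overlap. Over all 8 libraries the log2 fold change was 1.33 ± 0.33 (limma adjusted p = 0.126). With the block, which treats same-numbered libraries as pairs, the same fold had an SE of 0.13 and passed (adjusted p = 0.0209). The pairing was taken from the data. For number 4 the 2 libraries correlated at 0.142 over the genes tested, beside up to 0.131 with a library of another number. Without control 2 Ddit4 rose by 1.51 ± 0.33 (adjusted p = 0.0215).

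Tsc22d3 had 461, 679, 521 and 222 CPM in the controls and 887, 945, 931 and 745 CPM after silencing. The groups did not overlap. The log2 fold change was 1.00 ± 0.29 (limma adjusted p = 0.160), and without control 2 Tsc22d3 rose by 1.21 ± 0.25 (adjusted p = 0.0177).

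The kinases differed from each other. Map3k6 had 269.5, 739, 114 and 168 CPM in the controls and 722, 680.3, 531 and 706 CPM after silencing. Control 2 was above all silencing libraries, as for Fkbp5, and the other 3 controls were below them. With all controls kept, the log2 fold change was 1.39 ± 0.47 (limma adjusted p = 0.202), and without control 2 Map3k6 rose by 1.91 ± 0.24 (adjusted p = 0.00177).

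Sgk1 had 1381, 1122, 699 and 717 CPM in the controls and 1317, 955, 1109 and 917 CPM after silencing. The groups overlap over most of their range, and control 2 is not the highest control here. This gave a log2 fold change of 0.18 ± 0.23 (limma adjusted p = 0.732), and 0.27 ± 0.24 without control 2 (adjusted p = 0.497). Sgk1 holds the full receptor element in 1 of its 6 promoter windows.

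Counted together, 0 of the 10 genes passed with limma and all libraries, beside 0.177% of all 13017 genes tested (0.123% rose). At an unadjusted limma p under 0.05, 8 targets rose, beside 4.26% of all genes. With all 22 libraries in the fit 4 rose (Klf15, Klf9, Hif3a and Ddit4), beside 0.922% of all genes. With the replicate block 3 rose (Klf15, Hif3a and Ddit4), beside 0.607% of all genes that rose. Without silencing control 2, 8 of the 10 genes rose, all targets but Sgk1, beside 4.11% of all genes. Without any other single library no gene of the 10 passed. With the block and pair 2 left out 8 passed, beside 5.39% of all genes that rose, and with the block and any other pair left out none did. DESeq2 on the recovered reads called 4 (Klf9, Hif3a, Ddit4 and Tsc22d3; 2.32% of all genes rose) and gave Fkbp5 and Klf15 no adjusted p, and edgeR called 0 of the 10 (0.154% of all genes rose). The median log2 fold change of the 9 targets was 1.39, beside -0.07 for all genes tested. The groups did not overlap for 6 targets, with silencing higher, beside 2.25% of all genes. When control 2 was set aside they did not overlap for 8, beside 7.1%. Control 2 was the highest control for these 8, so setting it aside favours both this count and the 8 calls above.

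**Figure D3:**
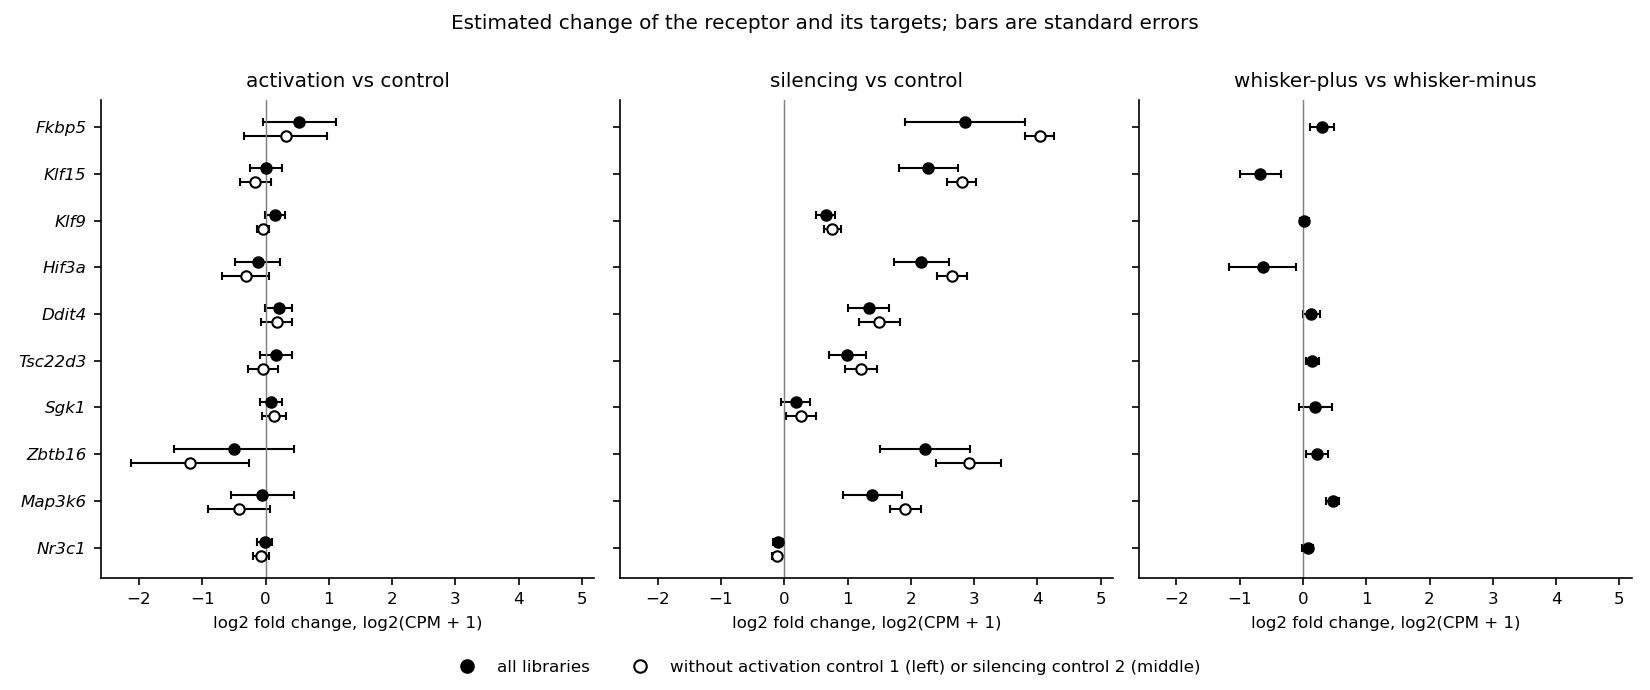
Log2 fold change on the scale of log2(CPM + 1) of the 10 genes in the 3 comparisons, with standard errors. Filled points use all libraries and hollow points leave out activation control 1 or silencing control 2. In the silencing panel the hollow points of the 9 targets lie farther right than the filled ones, 4.03 against 2.85 for Fkbp5. There 8 targets lie right of 0, while Sgk1 and Nr3c1 lie near 0.

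Silencing control 2 was the highest control for 8 of 9 targets. It lay above the silencing range for Fkbp5 and Map3k6, between the other controls and the silencing libraries for Klf15, Klf9, Hif3a, Ddit4, Tsc22d3 and Zbtb16, and within the silencing range for Sgk1. Its Nr3c1 level, 253 CPM, was the lowest of the controls. Compared pair by pair, the log2 difference between silencing and control libraries of the same number had a median over the 9 targets of 1.35, 0.24, 2.21 and 2.06 for numbers 1 to 4. The difference was above 0 for 8, 6, 9 and 9 of the 9 targets.

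**Figure D4:**
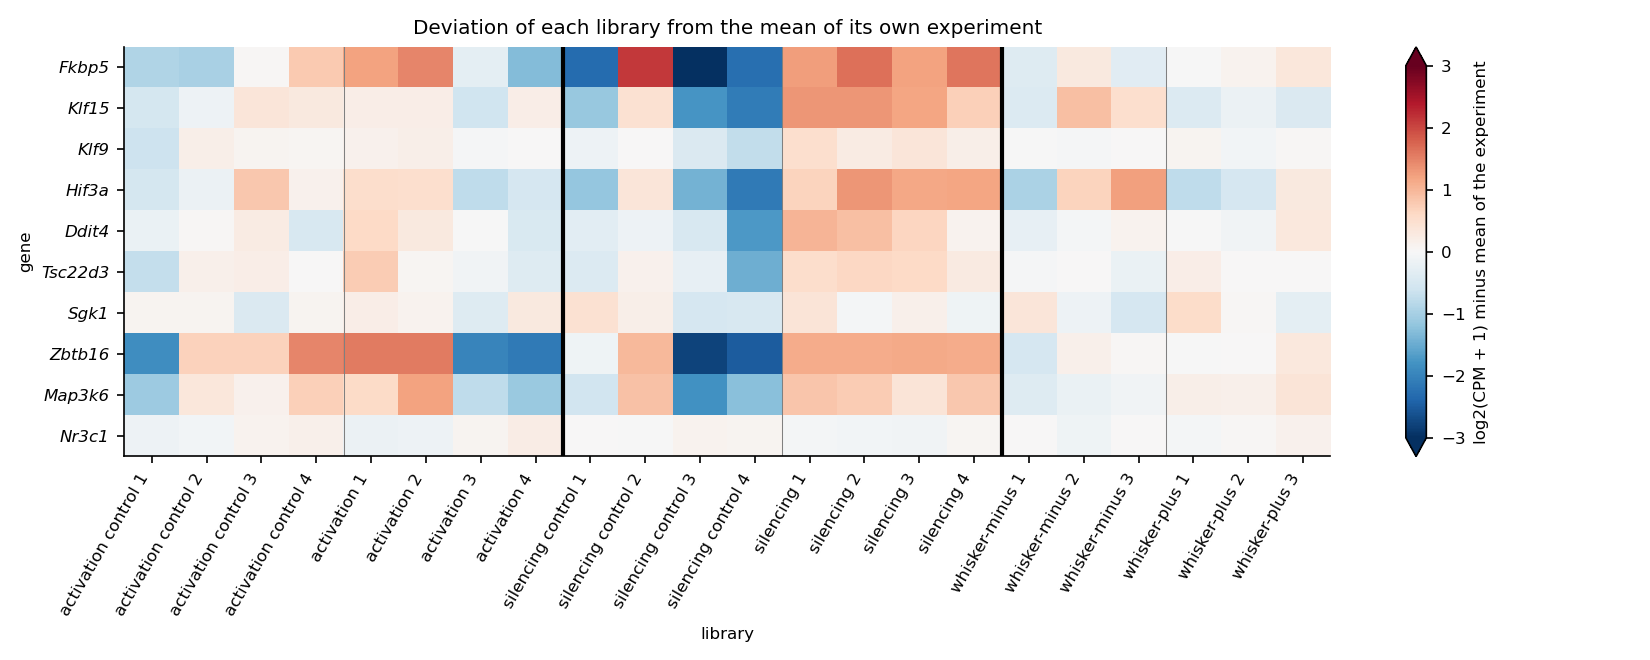
Deviation of log2(CPM + 1) from the mean of the same experiment, for 10 genes (rows) in 22 libraries (columns; thick lines part the experiments). Silencing control 2 is red for Fkbp5 among controls that are blue, and activation libraries 1 and 2 are red for Fkbp5 and Zbtb16 where 3 and 4 are blue. Nr3c1 stays near white throughout.

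The activation experiment asks the reverse question, with glutamatergic neurons excited. None of the 10 genes passed (0 of 10, beside 0.14% of all 12872 genes tested, and 0 at an unadjusted p under 0.05, beside 11.4%), with limma, with the block (1.82% of all genes called), with edgeR (0.0155%) or with DESeq2 (2.94%), nor with any library left out. The median log2 fold change of the 9 targets was 0.09, beside -0.01 for all genes, and -0.04 without activation control 1. Log2 fold changes ran from -0.50 ± 0.95 for Zbtb16 to 0.53 ± 0.58 for Fkbp5, and limma adjusted p-values from 0.777 to 0.994.

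The spread inside the activation groups was wide for the same genes. Fkbp5 had 9.25, 8.86, 18.6 and 32.2 CPM in controls 1 to 4 and 43.5, 51.8, 14.7 and 6.83 CPM in activation 1 to 4. Zbtb16 had 8.16, 52.8, 52.4 and 91.1 CPM in the controls and 97.0, 97.1, 7.38 and 6.61 CPM in activation. Map3k6 had 77.0, 208, 181 and 269 CPM in the controls and 245, 379.5, 97.1 and 74.9 CPM in activation. In all 3 genes activation libraries 1 and 2 were high and 3 and 4 low, and the groups overlap from end to end. Pair by pair, the median difference over the 9 targets was 1.06 and 0.35 for numbers 1 and 2 and -0.32 and -0.40 for numbers 3 and 4, with 9, 7, 1 and 2 of the 9 targets above 0. For Zbtb16 the same differences were 3.42, 0.87, -2.67 and -3.60.

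Hif3a showed the same order at a low level, with 3.81 and 3.72 CPM in activation 1 and 2 and 0.946 and 1.34 CPM in 3 and 4. Klf9 had 130.3, 229, 214 and 212 CPM in the controls and 220.5, 229, 197 and 204 CPM in activation, so that control 1 alone was low. Its log2 fold change went from 0.14 ± 0.16 to -0.04 ± 0.09 without that library. Control 1 was the lowest control for 6 of 9 targets (Klf15, Klf9, Hif3a, Tsc22d3, Zbtb16 and Map3k6). Klf15 stayed between 1.09 and 3.04 CPM and Hif3a stayed between 0.946 and 4.84 CPM over all 8 libraries. Tsc22d3 had 745 CPM in activation 1 and 336 to 451 CPM in the other activation libraries, against 267 to 499 CPM in the controls. Ddit4 ran from 65.2 to 136 CPM in activation and from 63.6 to 106 CPM in the controls.

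Sgk1 followed the replicate number more than the group. It had 1192, 1199, 832 and 1185 CPM in the controls and 1283, 1208, 856 and 1374 CPM in activation, with number 3 lowest in both. Its pair differences were all small and above 0, from 0.01 to 0.21 on the log2 scale, and it did not pass under the block (limma adjusted p = 0.615). Nr3c1 had 257, 273, 309 and 318 CPM in the controls and 253, 258, 302 and 337 CPM in activation, and its log2 fold change was -0.02 ± 0.12.

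The difference of the 2 effects was tested directly, as the activation effect minus the silencing effect over the 16 DREADD libraries. It was below 0 for all 9 targets, with a median of -1.44 beside 0.06 for all genes tested. Klf15 alone passed, at -2.26 ± 0.57 on the log2 scale (limma adjusted p = 0.0467), beside 0.854% of all 13464 genes that were called lower. The call held in 2 of 16 fits with a library left out (silencing control 2 or activation control 1), and the adjusted p was up to 0.104 in the others. Hif3a stood at -2.28 ± 0.61 (adjusted p = 0.0558) and Zbtb16, with a wide error, at -2.72 ± 1.33 (adjusted p = 0.318). Fkbp5 was at -2.32 ± 1.22 (adjusted p = 0.365), and Sgk1 at -0.09 ± 0.30. On the recovered reads Fkbp5 stood at -0.44 with edgeR and with DESeq2, and Zbtb16 at -1.49 and -1.50.

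With the block 3 targets passed, Klf15 (adjusted p = 0.0197), Hif3a (0.0459) and Ddit4 (0.0177), beside 2.33% of all genes. When a pair was also left out 0 to 5 passed, beside 0.751 to 3.54% of all genes. Without silencing control 2 Klf15, Hif3a and Fkbp5 passed, the last at -3.50 ± 0.74 (limma adjusted p = 0.0121), beside 2.65% of all genes. Without activation control 1 Klf15 and Hif3a passed (1.11% of all genes). Without both libraries 7 of 9 targets passed, beside 3.48% of all genes, and Ddit4 (adjusted p = 0.0825) and Sgk1 (0.864) did not. Silencing control 2 was high and activation control 1 low in most of these targets, so leaving them out favours such calls. No target passed with no filter on low genes (0.171% of all genes were lower), with a pseudocount of 0.1 (0.832%), with edgeR (1.14%) or with DESeq2 (3.52%). Klf15 alone passed with RLE scaling, TMM scaling or all 22 libraries in the fit, beside 328, 326 and 537 genes called in either direction.

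The whisker experiment compares barrel cortex after exploration with that of mice kept without whiskers. Map3k6 was the target with the clearest difference. It had 325, 368 and 395 CPM in whisker-minus and 478, 470.3 and 556 CPM in whisker-plus, so that the groups did not overlap. Groups that did not overlap, with whisker-plus higher, were seen in 5.65% of all 12776 genes tested. The log2 fold change was 0.47 ± 0.11 (limma adjusted p = 0.217). It rose with the replicate block (adjusted p = 0.00339, beside 2.99% of all genes) and with DESeq2 on the recovered reads (adjusted p = 0.000377, beside 1.63%), and did not pass with edgeR (adjusted p = 0.181, where 0.0% of all genes passed). With pair 3 left out of the blocked fit no target passed.

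With limma, all libraries and no block 0 of the 10 genes passed, beside 0.0% of all genes. At an unadjusted limma p under 0.05, 1 of the 9 targets rose, beside 3.3% of all genes. Klf15 had 4.73, 13.3 and 9.81 CPM in whisker-minus and 4.71, 5.78 and 4.65 CPM in whisker-plus. Library 1 of whisker-minus lay among the whisker-plus libraries, and the other 2 lay above them. The log2 fold change was -0.67 ± 0.32 (limma adjusted p = 0.432), and without whisker-minus 1 it was -1.04 and passed (adjusted p = 0.0468, beside 2.48% of all genes that fell). Leaving out that low control favours a fall. Without any other single library Klf15 did not pass (adjusted p up to 0.724).

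Hif3a had 6.24, 21.4 and 31.7 CPM in whisker-minus and 7.30, 8.92 and 16.2 CPM in whisker-plus. The groups overlap, with whisker-minus 1 lowest of all. Hif3a thus had a log2 fold change of -0.64 ± 0.53 (limma adjusted p = 0.678). Smooth muscle markers summed to between 79.1 and 1359 CPM in the whisker-minus libraries and 130.5 to 406 CPM in whisker-plus, and astrocyte markers to between 284 and 1095 CPM and 283 to 308 CPM. Their part in these values was not tested.

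The other genes of the 10 differed by less than their spread or close to it. Fkbp5 had 45.9, 74.1 and 47.8 CPM in whisker-minus and 60.6, 65.2 and 77.6 CPM in whisker-plus, with a log2 fold change of 0.30 ± 0.19. Tsc22d3 was at 894 to 1041 CPM in whisker-minus and 1025 to 1183 CPM in whisker-plus. Ddit4 and Zbtb16 had log2 fold changes of 0.13 ± 0.13 and 0.21 ± 0.18. Sgk1 again went with the number: 1113, 779.6 and 613 CPM in whisker-minus and 1269, 886 and 711 CPM in whisker-plus gave pair differences of 0.19, 0.18 and 0.21, and a limma adjusted p of 0.818 that became 0.0560 under the block. Klf9 was between 208 and 236 CPM and Nr3c1 between 301 and 364 CPM in all 6 libraries.

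The genes whose profile over all 22 libraries was most like that of Fkbp5 were sought among 10276 genes with a mean of at least 5 CPM. Likeness was the mean absolute difference between profiles of log2(CPM + 1), each centred on the mean of its experiment and divided by its SD. The closest were Doc2b (0.233 SD), Clip1 (0.241), Nek7 (0.255), Kcna5 (0.260), Slc2a1 (0.261), Klhl2 (0.264), Dcbld2 (0.278) and Hipk1 (0.284), against a median of 1.22 for all genes compared. Slc2a1 encodes GLUT1, the glucose transporter of the blood-brain barrier, and Kcna5 a voltage-gated potassium channel. Doc2b, for example, had 24.6, 308, 9.44 and 13.1 CPM in the silencing controls and 223 to 328 CPM after silencing, with control 2 in the range of the silencing libraries. With silencing control 2 and activation control 1 left out, 5 of these 8 genes (Clip1, Doc2b, Kcna5, Klhl2 and Nek7) were again among the closest 8. Among the other targets Map3k6 ranked 24 of the 10276 genes and Zbtb16 68, while Sgk1 ranked 1883 and Nr3c1 8276.

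**Figure D5:**
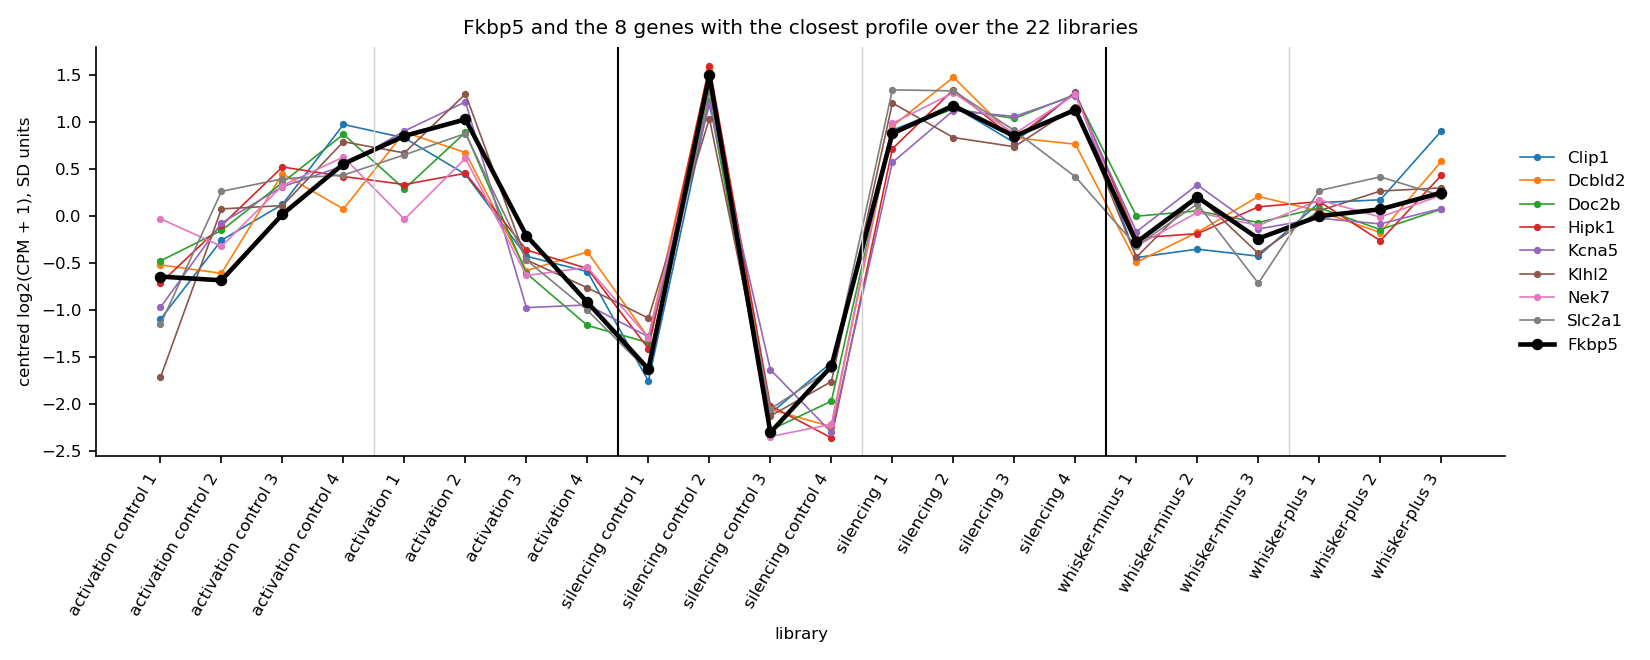
Profiles of Fkbp5 (black) and the 8 genes closest to it over 22 libraries, as log2(CPM + 1) centred on the experiment mean and divided by the SD. The lines stay together at silencing control 2, the highest point among the controls, and at silencing controls 1, 3 and 4, the lowest; the 8 genes differ from Fkbp5 by 0.233 to 0.284 SD on average.

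A list of 28 other genes that glucocorticoids are known to induce in various cell types was read beside the targets. In the silencing experiment 0 of 28 passed, and 24 were above 0, with a median of 0.28 beside -0.07 for all genes. With the block 2 rose, beside 0.607% of all genes, and 0 to 12 when a pair was also left out, beside 0 to 5.39%. Arrdc2, an arrestin-domain gene, went from 20.6 ± 3.21 to 29.6 ± 3.61 CPM (SD, n = 4 each; limma adjusted p = 0.0453) and Txnip, the thioredoxin inhibitor, from 362 ± 117 to 584 ± 118 CPM (adjusted p = 0.0370). Without silencing control 2, 6 of 28 rose, beside 4.11% of all genes. Among them Angptl4, an inhibitor of lipoprotein lipase, had a log2 fold change of 2.44 (adjusted p = 0.000713), Fam107a of 1.57 and Pnpla2, a triglyceride lipase, of 1.16. With all libraries the values were 1.77 for Angptl4 (limma adjusted p = 0.192), 1.16 for Fam107a (0.168) and 0.89 for Pnpla2 (0.159). Each value was higher without control 2, so leaving it out favours these calls too.

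In the activation experiment 0 of the 27 tested genes of that list passed, and with the block the metallothionein Mt2 rose from 66.6 ± 20.2 to 123 ± 51.7 CPM (limma adjusted p = 0.0414, beside 1.03% of all genes that rose), which did not hold with any pair left out. For whisker 0 of 28 passed. With the block 3 rose, beside 2.99% of all genes: Lcn2 (from 11 ± 6.60 to 72.6 ± 15.9 CPM, n = 3 each), Cdkn1a and Cebpd. When a pair was also left out 1 to 5 rose, beside 0.0078 to 4.55% of all genes. Under the block Mertk fell, from 116 ± 19.7 to 89.2 ± 1.81 CPM (limma adjusted p = 0.0324, beside 5.6% of all genes that fell). In the difference of effects 0 passed, and with the block Arrdc2, Pnpla2 and Txnip were lower for activation, by 0.82, 1.15 and 0.63 on the log2 scale, beside 2.33% of all genes.

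The last list held 22 genes of the receptor's chaperones, cofactors and hormone handling, of which 19 were tested for activation and 20 in each other comparison. For silencing 0 passed with or without the block. Hspa4, a heat shock protein, had the smallest unadjusted p, at 168 ± 8.35 CPM in the controls and 138 ± 12.4 CPM after silencing (limma adjusted p = 0.160). Without silencing control 2 Hspa4 fell by 0.33 on the log2 scale (adjusted p = 0.0329, beside 7.35% of all genes that fell). The coactivator Ncoa3, named after its values were seen, rose by 0.42 in that fit (adjusted p = 0.0270, beside 4.11% of all genes that rose). For activation 0 passed. With the block Hsp90aa1, which encodes a form of the chaperone Hsp90, rose from 74.1 ± 23.1 to 123 ± 33.1 CPM (adjusted p = 0.0095), its partner Ptges3 (p23) rose from 41.4 ± 3.83 to 57.2 ± 6.65 CPM (adjusted p = 0.0414), and the coactivator Ncoa2 fell from 99.0 ± 12.2 to 76.2 ± 11.2 CPM (adjusted p = 0.0381). Of all genes 1.03% rose and 0.792% fell under that block. With a pair also left out 0 or 1 gene rose and none fell, beside 0.0154 to 0.232% and 0.0231 to 0.186% of all genes.

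For whisker 0 of 20 passed without the block. With the block and a pair left out 0 to 9 rose, beside 0.0078 to 4.55% of all genes. With the block and all libraries 7 rose, all of them chaperones or co-chaperones: Hsp90aa1, Hsp90ab1, Hspa8, Stip1, Ptges3, Fkbp4 and St13. This stands beside 2.99% of all genes, and the chaperone Hspa4 (adjusted p = 0.472) and the co-chaperone Bag1 (adjusted p = 0.985) did not pass. Stip1, which links Hsp70 to Hsp90, went from 78.9 ± 13.3 to 129 ± 7.35 CPM (limma adjusted p = 0.00229 with the block). The mineralocorticoid receptor Nr3c2 fell from 33.3 ± 2.29 to 23.0 ± 2.61 CPM, and the coactivator Ncoa1 from 118 ± 13.4 to 89.1 ± 9.56 CPM, beside 5.6% of all genes. In the difference of effects Ptges3 (0.74 ± 0.16, adjusted p = 0.0256) and Hspa4 (0.45 ± 0.11, adjusted p = 0.0457) were higher for activation with no block, beside 1.46% of all genes. With the block Hsp90aa1 and Stip1 joined them (4.02% of all genes were higher), and Ncoa2 and the efflux pump Abcb1a were lower (2.33%).

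The authors' deposited table gives its own fold changes, which differ in size from those above. For silencing, the authors' deposited table has Klf9 (log2 fold change 0.61, FDR 0.00353), Ddit4 (0.87, FDR 0.00136) and Tsc22d3 (0.68, FDR 0.0185) under an FDR of 0.05, beside 430 genes in all. It gives Fkbp5 0.13 (FDR 0.769), Klf15 0.52 (FDR 0.0963) and Hif3a 0.57 (FDR 0.0651) in the authors' deposited table. For whisker the authors' deposited table has Map3k6 under that threshold (0.51, FDR 0.00119) and no other of the 10, beside 339 genes in all. For activation it has none of the 10, beside 322 genes in all. Each of these totals counts genes of either direction among the 37991 listed, while the genes of the 10 under the threshold were all higher. How many genes were given an FDR was not counted, so no share is stated.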

How the data were processed

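Gene symbols, replicate numbers and groups were taken from the table and the sample titles. Per the file headers the authors deposited CPM values and, for each comparison, a log2 fold change, a p-value and an FDR. The build mm9 and the tools HTSeq 0.6.1, DESeq2, TopHat2 2.0.11, SAMtools 0.1.19 and Bowtie2 2.2.1 appear in the submitters' processing notes; counting and strand settings were not given in the sources used here. No exon of the 10 genes overlapped another gene in GENCODE M21. All CPM values were whole multiples of 1 read within 0.01 read, which gave back the reads.

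Each comparison was fitted on its own libraries with limma 3.58.1 (R 4.3.3, mean-variance trend) on log2(CPM + 1), for genes that reached 1 CPM in a number of libraries equal to the smaller group's size, with Benjamini-Hochberg adjustment over all of them and a threshold of 0.05. The scripts were tested on simulated data. Alternatives were a pseudocount of 0.1, no filter, TMM or RLE scaling, all 22 libraries in the fit, each library left out, the replicate number as a block, and edgeR 4.0.16 and DESeq2 1.42.0 on the recovered reads. The series text calls the samples biological samples. Same-numbered libraries deviated together (correlations of 0.14 to 0.62), so the numbers were taken as pairs on the evidence of the data. For silencing numbers 2 and 4 this evidence was weak, at 0.155 and 0.142 beside up to 0.131 with a library of another number. The members, lists and tests were chosen with earlier results of these data known. All 10 members are named; of the lists, genes that passed and up to 4 more by unadjusted p could be named, and some of the latter were left out.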

Additional observations from a re-analysis of the deposited data

Results flagged for a closer look

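Over 40 groups of 4 libraries (10 genes in 4 groups), 3 held a library far from the other 3. Chance gives about 1 in 20 groups, so that 3 of 40 is close to what chance gives. Fkbp5 in silencing control 2 stood at 469 CPM, with the other controls at 10.3 to 21.6 CPM. Klf15 in activation 3 stood at 1.09 CPM (23 reads), with the others at 2.60 to 2.63 CPM (56 to 59 reads). Sgk1 in activation control 3 stood at 832 CPM, with the others at 1185 to 1199 CPM, and activation 3 was likewise the lowest of its group at 856 CPM. The effects of activation and silencing on Klf15 differed by -2.26 on the log2 scale (limma adjusted p = 0.0467 over all genes, 16 libraries).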

How the results depend on the processing

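For silencing 0 targets rose with all libraries, 4 with all 22 libraries in the fit, 3 with the replicate block, 4 with DESeq2, 0 to 8 with a library left out and 0 to 8 with the block and a pair left out; 8 came without silencing control 2 or pair 2. The share of all genes that rose was 0.123% in the main fit, 0.922% with all 22 libraries, 0.607% with the replicate block and 2.32% with DESeq2. It was 0 to 4.11% with a library left out and 0 to 5.39% with the block and a pair left out. For whisker 0 rose, 1 with the replicate block (2.99% of all genes rose) and 1 with DESeq2 (1.63%). With the block and a pair left out 0 to 3 rose, beside 0.0078 to 4.55% of all genes. With a library left out 0 to 1 fell, beside 0 to 2.48% of all genes. With the block and a pair left out 0 to 2 fell, beside 0 to 13.7%. For the difference 1 target was lower, 0 with no filter, with a pseudocount of 0.1, with edgeR or with DESeq2, 3 with the replicate block, 7 without silencing control 2 and activation control 1, 0 to 3 with a library left out (0.271 to 2.65% of all genes) and 0 to 5 with the block and a pair left out (0.751 to 3.54%). Klf15 alone was lower with RLE scaling, TMM scaling or all 22 libraries in the fit, beside 328, 326 and 537 genes called in either direction.

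For activation Zbtb16 went from -0.50 to 0.021 with edgeR and 0.016 with DESeq2, and Map3k6 from -0.05 to 0.12 and 0.11. With a library left out the log2 fold change ran from -0.16 to 0.21 for Klf15, -0.040 to 0.23 for Klf9, -0.32 to 0.13 for Hif3a, -0.063 to 0.32 for Tsc22d3, -0.036 to 0.24 for Sgk1, -1.20 to 0.13 for Zbtb16, -0.46 to 0.32 for Map3k6 and -0.095 to 0.043 for Nr3c1; with the block and a pair left out from -0.10 to 1.41 for Fkbp5, -0.23 to 0.33 for Klf15, -0.058 to 0.23 for Klf9, -0.51 to 0.37 for Hif3a (0.056 without pair 4), -0.27 to 0.35 for Tsc22d3, -1.80 to 0.54 for Zbtb16, -0.62 to 0.54 for Map3k6 and -0.05 to 0.0073 for Nr3c1. For whisker Klf9 ran from -0.019 to 0.070 with a library left out and -0.016 to 0.06 with the block, and Sgk1 from -0.030 to 0.42. For the difference Sgk1 ran from -0.27 to 0.060 and, with the block, from -0.22 to 0.075. No silencing effect on the 10 genes changed sign. The causes were not tested.

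Over all genes the count of calls moved with the setting: 18 for activation with limma, 234 with the block, 371 with DESeq2 and 2 with edgeR; 23 for silencing, 136, 462 and 24, and 1504 without silencing control 2; 0 for whisker, 1097, 406 and 0; 311 for the difference, 855, 760 and 295. All 23 silencing calls were among the 1504. Klf15 and Hif3a held few reads in the activation experiment, which limits the precision there.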
